A study of Mus musculus with 2 samples.

Results

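The expressed small nucleolar RNA (snoRNA) genes of neonatal mouse gastrocnemius, the main calf muscle, were 18 genes with symbols that start with Snord (box C/D class, 5 genes) or Snora (box H/ACA class, 13 genes). They were chosen by their mean expected count over both libraries, with a minimum of 10, so their presence and their level are descriptions and not tested findings. They came from 141 gene entries with such symbols and from 55536 Ensembl genes in all, of which 17581 reached the same minimum. An expected count is an estimated number of reads for a gene and need not be whole. The study held 1 group, the gastrocnemius of female B6CASTF1/J mice (F1 hybrids of C57BL/6J and CAST/EiJ) aged 4 days, with no treatment named in the labels and with 1 total RNA library from each of 2 biological replicates. Each library was made from 300 ng of RNA. The labels number the animals 03 (replicate 1) and 04 (replicate 2) and give both the same donor record, so a shared litter cannot be told from the labels. There was no second condition, and the design allows only levels, comparisons within a library and the spread between the 2 animals.

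Box C/D snoRNAs carry the conserved C and D boxes and guide 2′-O-methylation of ribosomal RNA by Fbl, the methyltransferase of a particle that also holds Nop56, Nop58 and Snu13. Box H/ACA snoRNAs end in an ACA box and guide the conversion of uridine to pseudouridine by Dkc1, the synthase of a particle with Gar1, Nhp2 and Nop10. A few snoRNAs of either class, among them U17 (Snora73), U8 (Snord118) and U22 (Snord22), are needed for cleavage of the ribosomal RNA precursor and not known mainly as guides. In mammals most snoRNAs are cut out of introns of a host gene after splicing, and many hosts encode ribosomal or nucleolar proteins or are noncoding RNAs of the Snhg family.

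The sequences of the members that carry the results below are given first, from the GENCODE M21 transcripts (mm10), 5′ to 3′, with the DNA letter T for U. Capitals mark the C box core TGATGA and the D box CTGA in the box C/D genes and the ACA nearest to its usual place 3 bases before the end in the box H/ACA genes. The U17 pair comes first because its 2 genes held the most counts and are nearly the same sequence. Snora73b lies at chr4:132352322-132352526 and Snora73a at chr4:132352775-132352979, both on the minus strand and 248 bp apart. Each lies in an intron of Rcc1, and an annotated Rcc1 exon lies between them.
Snora73b: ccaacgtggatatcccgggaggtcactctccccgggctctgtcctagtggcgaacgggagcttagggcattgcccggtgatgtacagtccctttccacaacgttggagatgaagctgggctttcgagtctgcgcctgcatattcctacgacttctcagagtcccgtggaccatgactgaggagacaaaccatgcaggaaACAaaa
Snora73a: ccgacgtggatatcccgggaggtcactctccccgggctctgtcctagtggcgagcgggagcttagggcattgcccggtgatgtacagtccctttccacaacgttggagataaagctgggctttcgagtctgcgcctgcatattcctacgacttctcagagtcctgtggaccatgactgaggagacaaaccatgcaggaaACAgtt
Of their 205 bases 198 were identical (96.6%), and the longest identical run was 56 bases.

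The box C/D genes with the most counts are shown to compare their boxes, with Snord118 as the member just inside the count minimum. Snord17 lies at chr2:144265979-144266216, Snord15b at chr7:99479563-99479707 and Snord15a at chr7:99482785-99482932, all on the minus strand. Snord22 lies at chr19:8725866-8725991 and Snord118 at chr11:69073427-69073561, both on the plus strand.
Snord17: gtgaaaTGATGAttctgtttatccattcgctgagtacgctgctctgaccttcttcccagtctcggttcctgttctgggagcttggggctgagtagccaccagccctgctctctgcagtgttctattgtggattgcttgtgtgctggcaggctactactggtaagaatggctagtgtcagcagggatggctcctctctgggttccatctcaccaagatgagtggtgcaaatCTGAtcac
Snord15b: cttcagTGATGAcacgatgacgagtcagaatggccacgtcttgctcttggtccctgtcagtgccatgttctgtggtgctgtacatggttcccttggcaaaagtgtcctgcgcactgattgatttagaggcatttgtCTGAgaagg
Snord15a: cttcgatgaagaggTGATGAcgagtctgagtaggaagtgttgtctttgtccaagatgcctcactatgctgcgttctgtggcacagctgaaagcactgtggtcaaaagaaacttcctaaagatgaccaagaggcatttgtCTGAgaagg
Snord22: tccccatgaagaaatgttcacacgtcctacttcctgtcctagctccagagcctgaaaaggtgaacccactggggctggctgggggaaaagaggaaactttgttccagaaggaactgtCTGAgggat
Snord118: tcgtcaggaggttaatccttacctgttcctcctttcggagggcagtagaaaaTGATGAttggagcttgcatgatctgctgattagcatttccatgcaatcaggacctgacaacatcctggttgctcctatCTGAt
The U15 pair, Snord15a and Snord15b, was less alike than the U17 pair, with 107 of 162 aligned columns identical (66.0%) and 3077 bp between the genes. Snord22 held no TGATGA.

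A last pair of box H/ACA genes is shown because they stand for opposite placements in the host. Snora23 (chr7:110046364-110046547, plus strand) lies in an intron of Ipo7, and no exon of an annotated Ipo7 transcript overlaps it. Snora81 (chr16:23110756-23110933, plus strand) lies whole inside an exon of 1 annotated transcript of Eif4a2, and its printed sequence has no ACA within 6 bases of the end.
Snora23: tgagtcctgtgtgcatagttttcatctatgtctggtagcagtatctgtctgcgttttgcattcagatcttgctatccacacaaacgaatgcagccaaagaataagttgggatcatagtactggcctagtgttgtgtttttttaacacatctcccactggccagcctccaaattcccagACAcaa
Snora81: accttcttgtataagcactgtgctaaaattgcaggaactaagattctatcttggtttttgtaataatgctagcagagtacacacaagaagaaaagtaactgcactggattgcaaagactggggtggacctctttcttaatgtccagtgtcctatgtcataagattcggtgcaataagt

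The class in the symbol was checked against the boxes, searched on the sense strand only. TGATGA was present in 4 of the 5 box C/D members and in 75 of all 99 annotated box C/D genes (75.8%), against 0 of 42 box H/ACA genes. In the first 145 bases of 134526 other transcripts TGATGA was present in 5.05%. CTGA, a shorter string, was present within the last 15 bases of all 5 box C/D members and of 92 of the 99 annotated ones. Of those other windows, 7.23% held CTGA within their last 15 bases and 56.1% held it anywhere. ACA within 6 bases of the 3′ end was present in 11 of the 13 box H/ACA members, with Snora44 and Snora81 as the exceptions, and in 40 of the 42 annotated box H/ACA genes (95.2%). Of the 145-base windows of other transcripts, 10.7% held ACA within 6 bases of the window end, which is not the 3′ end of the transcript. A match describes letters only and no match does not speak to the function of a gene.

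Gene length set which snoRNA genes could be counted at all. Effective lengths in the gene tables equalled the full length less 99 nt, and all 87 box C/D genes shorter than 100 nt had 0 counts in both libraries. These are 87 of the 99 annotated box C/D genes, whose median length was 84 nt (range 64 to 238). No box H/ACA gene was that short, with a median of 132.5 nt (range 121 to 205). Among genes of at least 100 nt, 5 of 12 box C/D genes (41.7%) and 13 of 42 box H/ACA genes (30.95%) were members. The larger number of box H/ACA members therefore does not describe the 2 classes in the tissue, because most of the box C/D class could not receive counts. The members were 121 to 238 nt long, with effective lengths of 22 to 139 nt. All 17 Snord116 genes, a brain-rich imprinted cluster, were at most 94 nt long and all 4 Snord14 (U14) genes at most 90 nt, so their 0 counts give no level.

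**Figure D1:**
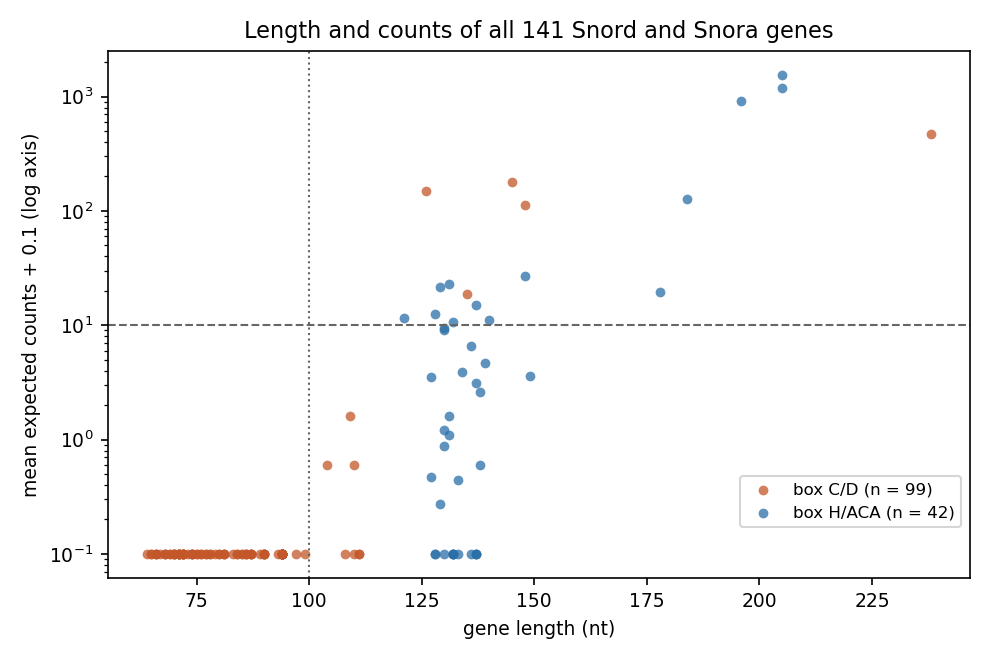
Gene length in nt against the mean expected count of both libraries plus 0.1 (log axis) for the 99 box C/D and 42 box H/ACA genes. Every gene to the left of the dotted line at 100 nt sits at 0 counts, and the 18 members lie above the dashed line at 10 counts.

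Of the 54 genes of at least 100 nt, 16 had 0 counts in both libraries and 20 had counts with a mean under 10. A count of 0 in these libraries allows up to 0.0976 CPM (counts scaled to the library total) in replicate 1 and 0.0834 in replicate 2 (3 counts of the total, counting error only). Snora17 (8 and 13 counts in replicates 1 and 2) and Snora7a (12.43 and 9.74) were the box H/ACA members just inside the minimum, and Snora61 (3.46 and 15.12) and Snora31 (11 and 7) were just outside. For box C/D the nearest genes inside were Snord118 (15 and 22) and Snord15a (101 and 123), and the nearest outside was Snord23 (2 and 1). Snord13, the U13 RNA that assists acetylation of 18S ribosomal RNA by Nat10, had 1 and 0 counts at 104 nt, and Snord8 had 0 and 1. The box C/D class thus had a wide gap at the minimum, and the box H/ACA class had none.

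The members summed to 4621.21 and 5124.32 expected counts in replicates 1 and 2, or 0.0150% and 0.0142% of all gene counts, and they held 99.0% and 98.8% of the counts of all 141 Snord and Snora entries. A few genes held nearly all of this. Snora73b, Snora73a and Snora74a together made up 76.0% and 74.5% of the member counts, and the 8 members with a mean of at least 100 counts made up 96.9% and 96.2%. The other 10 members, 9 of them box H/ACA, each had a mean under 50 counts.

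Snora73b and Snora73a are the 2 mouse genes of U17, a box H/ACA RNA known for its part in processing of the 18S precursor. Snora73b had 1492.58 counts in replicate 1 and 1610.96 in replicate 2. Snora73a had 1134.99 and 1261.66 counts. The order of these near-identical genes was the same in both libraries. Neither gene had whole counts, and how reads that match both were divided was not tested, so each value alone keeps some uncertainty. The posterior SD that the authors gave was 8.68 and 8.72 counts for Snora73b in replicates 1 and 2. For Snora73a it was 8.85 and 8.96. Per length, Snora73b stood at 491 ± 17.3 TPM (counts scaled by effective length and by the library total; mean ± SD, n = 2 here and below) and Snora73a at 379 ± 5.47 TPM, the highest levels of any member.

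Snora74a, the U19 RNA that guides modification of 28S ribosomal RNA, had 886.33 counts in replicate 1 and 946.68 in replicate 2, or 317 ± 13.5 TPM. The fourth box H/ACA member with at least 100 counts was Snora23, a 28S guide, with 135 counts in replicate 1 and 118 in replicate 2 and 50.2 ± 9.21 TPM. Between these and the rest of the class lay a wide step. Snora57, an 18S guide, was next at 26 and 28 counts, followed by Snora68 (19.44 and 26.62) and Snora44 (20.65 and 22.05). The values of Snora68 overlapped those of both others, so the order of these 3 was not resolved. Snora21 (11 and 19 counts), Snora78 (13 and 12), Snora26 (9.44 and 13.56), Snora7a and Snora17 completed the lower end, and at such counts their order was not resolved. Snora81 had 9.39 counts in replicate 1 and 29.16 in replicate 2, the widest relative gap of any member.

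Snord17, a guide for 28S ribosomal RNA and the longest member at 238 nt, had the most box C/D counts, 439 in replicate 1 and 501 in replicate 2. Snord15b had 137.06 and 221.12 counts, and its partner Snord15a had 101 and 123. Both come from Rps3, which encodes a small ribosomal subunit protein, and both guide 28S modification. Snord22 had 150.9 and 146.77 counts. Per effective length the order within the class changed. Snord22 led with 185 ± 20.1 TPM, ahead of Snord15b (129 ± 31.8), Snord17 (113 ± 0.467) and Snord15a (76.3 ± 3.82). The ranges of Snord15b (106.43 and 151.34 TPM) and Snord17 (112.82 and 113.48 TPM) overlapped, so their order was not resolved. Snord118, the U8 RNA, was far below these 4 with 15 and 22 counts (14.88 and 19.24 TPM).

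**Figure D2:**
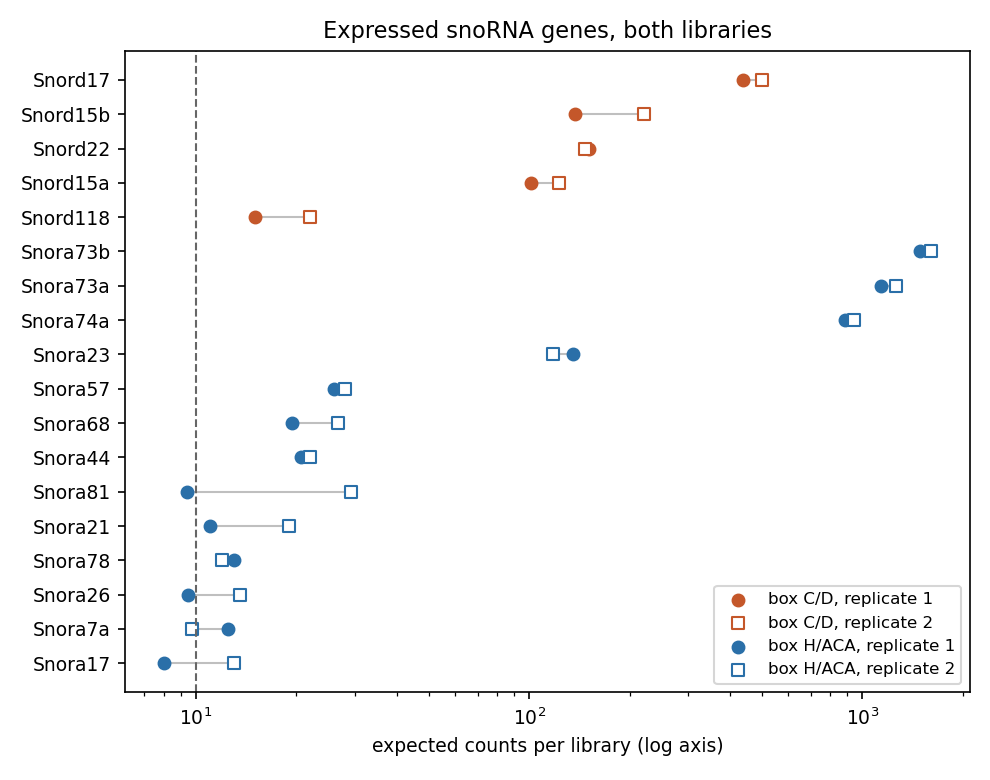
Expected counts (log axis) of each of the 18 members in replicate 1 (filled circles) and replicate 2 (open squares), box C/D in orange and box H/ACA in blue, with a dashed line at 10 counts. Snora73b, Snora73a and Snora74a lie to the right of every other member in both libraries, and the pair of points for Snora81 is the widest apart.

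The classes differed in how the counts were spread over their genes. Box H/ACA members summed to 3778.25 and 4110.43 counts and box C/D members to 842.96 and 1013.89, so that box H/ACA held 81.8% of member counts in replicate 1 (exact 95% interval 80.6 to 82.9) and 80.2% in replicate 2 (79.1 to 81.3). These intervals cover counting error only. On the TPM scale the box H/ACA share was 73.4% and 71.7%. The median gene showed the opposite order. The median box C/D member stood at 106.43 and 113.48 TPM, against 18.95 and 19.4 TPM for the median box H/ACA member. This order rested on the 9 box H/ACA members with few counts. Among members with a mean of 100 counts or more, 4 in each class, it turned, with median TPM of 121 for box C/D and 348 for box H/ACA. The box H/ACA sum rested on Snora73b, Snora73a and Snora74a, while 4 of the 5 box C/D members exceeded 70 TPM in both libraries. No test was made of either contrast, since the members were chosen on these counts and come from the same 2 libraries.

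Of the 18 members 15 lay inside a gene on the same strand, their host, and 13 distinct genes served as hosts. Host was taken as the same-strand gene of a longer RNA type that spans the whole snoRNA gene, with the most counts where several did. Counted by snoRNA, 10 members lay in coding genes, 5 of them genes of ribosomal proteins, and 5 in noncoding genes. This split depends on that rule, since noncoding Snhg3 also spans both U17 genes and coding Gm28285 also spans Snora74a. Rcc1, which encodes the nucleotide exchange factor of Ran, spanned both U17 genes, and Rps3 spanned both U15 genes. No host was found for Snord118, which is known to have its own promoter, for Snora17 or for Snora57, which faces Lbhd1 on the opposite strand. The distance from the snoRNA to the next exon downstream had a median of 92 bases, with a range of 49 to 3954 (Snord17 in Snx5).

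The level of a member relative to its host varied widely. Rcc1 stood at 10.8 TPM in replicate 1 and 9.75 in replicate 2, so Snora73b was 46.6 and 49.1 times its host and Snora73a 35.4 and 38.4 times. Snhg3, a noncoding gene that also spans both U17 genes, was at a like level of 9.38 and 8.84 TPM. Snora74a exceeded its noncoding host AC121821.1 (4.44 and 4.19 TPM) by the widest ratio, 73.5 and 73.3. Of the 15 members with a host, 9 were above it in TPM in both libraries and 6 below it in both, with a median ratio of 2.51 and 3.11. All 5 members in noncoding hosts were above them. In Snhg1, a noncoding RNA, Snord22 stood at 9.70 and 8.51 times the host (20.58 and 20.1 TPM), and it was the 1 gene of at least 100 nt among the 8 annotated snoRNA genes that Snhg1 spans.

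Members in ribosomal protein genes were below their hosts. Snora21 reached 0.028 and 0.041 of the TPM of Rpl23 and Snora7a 0.021 and 0.013 of Rpl32. Snord15a and Snord15b were nearer their host Rps3 (194.35 and 210.39 TPM), at 0.379 and 0.376 of it for Snord15a and 0.548 and 0.719 for Snord15b. TPM divides by an effective length that is short for every member, which raises members against hosts. By CPM, with no length in the value, 4 of the 15 members were above the host in both libraries, namely Snora73b, Snora73a, Snora74a and Snora78. The host of Snora78, Snhg9, had only 4 and 1 counts, and it lies antisense to Rps2, so its reads are uncertain without the strand setting.

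**Figure D3:**
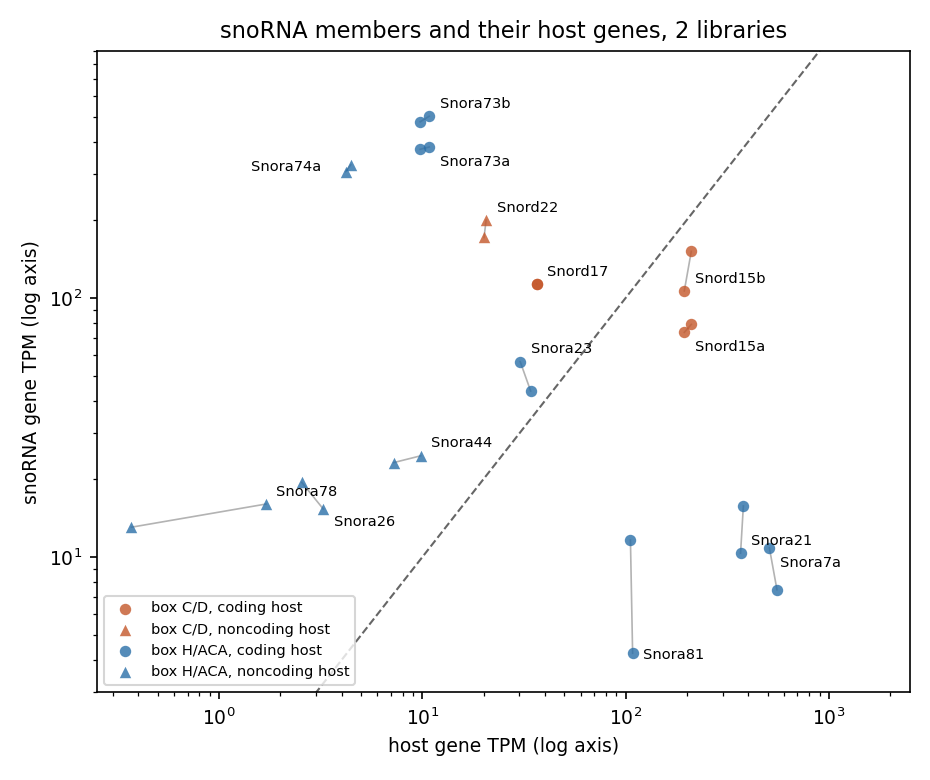
TPM of the host gene against TPM of the snoRNA gene (log axes) for 14 of the 15 members with a host. Each member has 1 point per library joined by a grey line, circles are coding and triangles noncoding hosts, and the dashed line marks equal levels. Of these members 9 lie above the line in both libraries and 5 below it.

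Across the 48 genes of at least 100 nt with a host, host TPM and snoRNA counts had a Spearman rho of 0.03 in replicate 1 and 0.02 in replicate 2, and across the 15 members host TPM and member TPM had one of -0.31 and -0.23. These are descriptions across genes, which share library and depth. Several snoRNA genes long enough to be counted had 0 counts in both libraries although their host was abundant. Snora52 lies in Rplp2, a ribosomal protein gene at 481 ± 46.6 TPM, and Snora41 in the translation factor gene Eef1b2 at 376 ± 18.7 TPM. Snora75 lies in Ncl, which encodes nucleolin, at 75.8 ± 6.16 TPM. Snora52 and Snora75 each lie whole inside an exon of 1 host transcript. That transcript had 236.51 and 334.63 counts for Snora52 and 34.9 and 42.34 for Snora75. How reads were divided between snoRNA and host transcript was not tested, so these 0 counts do not show absence. No exon of an annotated Eef1b2 transcript overlaps Snora41. In Snhg12 (9.81 and 7.22 TPM) 4 snoRNA entries of at least 100 nt share 1 host, and their counts differed. Snora44 had 20.65 and 22.05 counts and Snora61 3.46 and 15.12, while both entries of Snora16a, which overlap at 1 locus, had 0. All 4 entries lie whole inside an exon of at least 1 Snhg12 transcript, and how reads were divided was not tested. The imprinted host Rian stood at 2052 ± 17.3 TPM, but the 13 snoRNA genes it spans were at most 75 nt long and none had counts.

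How firmly a read could be given to a snoRNA gene differed between members. For 7 members with a host no exon of that host's transcripts overlapped the snoRNA, and 8 lay whole inside an exon of at least 1 host transcript. Shared sequence was counted in windows of 100 nt, compared with all other annotated transcripts. For 9 members no window was shared, for 8 all windows were shared with a host transcript (Snora74a, Snord15b, Snord22, Snora68, Snora44, Snora81, Snora26 and Snora7a), and for Snora73a 60 of 106 windows were shared with Snhg3. The expected counts followed this split. The 8 members with whole counts in both libraries all had no shared window, and 9 of the 10 others shared windows, with Snora73b, the near copy of Snora73a, as the remaining one.

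For the 8 members inside a host transcript, the counts that the authors' estimate gave to the holding transcripts are set beside the members' own. The transcripts that hold Snord22 had 282.81 and 165.24 counts against 150.9 and 146.77 for Snord22, so that Snord22 took 34.8% and 47.0% of the sum. For Snora74a the holding transcript had only 5.81 and 20.01 counts, and the snoRNA took 99.3% and 97.9%. For Snord15b the share was 62.8% and 74.6%. Snora81 took 9.39 of 339.48 counts in replicate 1 (2.77%) and 29.16 of 214.47 in replicate 2 (13.6%). The holding transcripts are longer than the snoRNA, and their counts include reads from outside it. The share taken by the snoRNA was largest for Snora74a and smallest for Snora81.

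The spread between the 2 animals was read from the log2 ratio of replicate 2 over replicate 1 after scaling by trimmed mean of M values (TMM) in edgeR. With 1 library per animal there is no test of the ratio, and it describes these libraries. The members had a median log2 ratio of -0.01, from -0.37 to 1.34, with 9 higher and 9 lower. Over the 17581 genes that reached 10 counts the median was -0.00. The box C/D members had a median of 0.11, with 4 of 5 higher, and the box H/ACA members one of -0.07, with 5 of 13 higher. Scaling by ERCC spike-ins lowered the median of all genes by 0.14 and left 7 members higher and 11 lower.

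Of the 18 members 1 differed over 2-fold either way, Snora81, against 3.75% of all 17581 genes. It was higher in replicate 2, as were 1.02% of all genes by over 2-fold. None of the 8 members with at least 100 counts differed over 2-fold, against 0.71% of genes at that depth, and 1 of the 10 members with fewer counts did, against 10.7% of genes between 10 and 100 counts. The member counts were near these shares. The most abundant members were close between animals, with log2 ratios of -0.07 for Snora73b, -0.02 for Snora73a, -0.08 for Snora74a and 0.01 for Snord17. Among the 8 with at least 100 counts the median size of the log2 ratio was 0.09, beside 0.12 for all genes at that depth. Snord15b was the most different of these, with a log2 ratio of 0.51, and 61.7% of its counts fell in replicate 2 (exact 95% interval 56.5 to 66.8). An even split is not the reference for this share, because replicate 2 held more gene counts (35977559 against 30745756). Its partner Snord15a, which shares the host, had 0.11, and Rps3 itself 0.07. At the other end Snora23 had a log2 ratio of -0.37 and Snord22 of -0.21, and their hosts had 0.16 for Ipo7 and -0.34 for Snhg1.

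**Figure D4:**
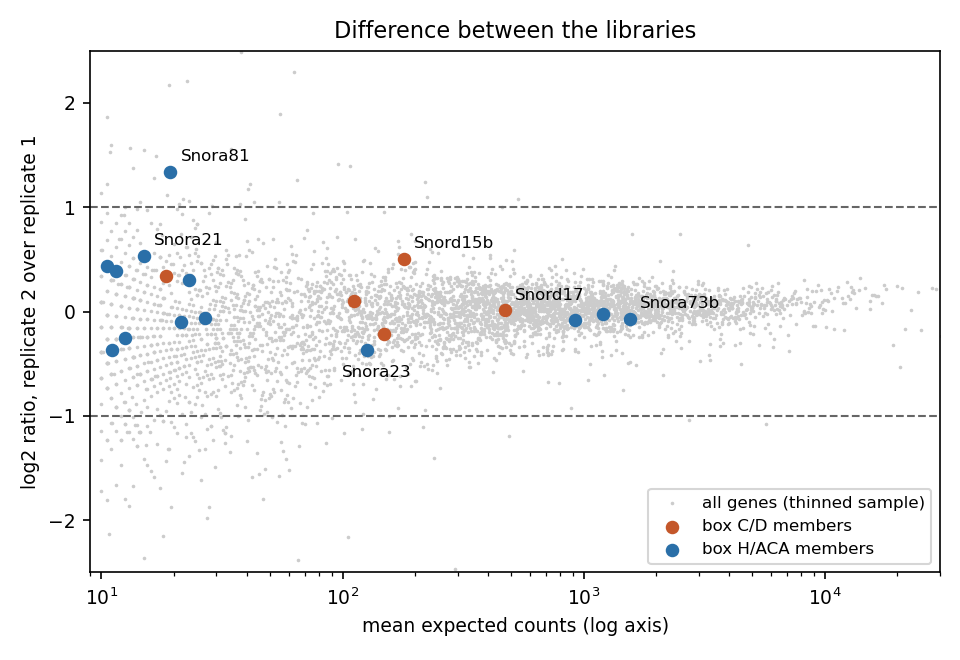
Mean expected counts (log axis) against the log2 ratio of replicate 2 over replicate 1, with members in colour and a thinned sample of 4396 genes in grey (34 of them lie beyond the vertical axis and 23 beyond the right edge). Dashed lines mark 2-fold, and Snora81 is the only member outside them.

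Snora81 shares all its windows with a transcript of Eif4a2, the gene of a translation initiation factor. Alone, Snora81 had a log2 ratio of 1.34 (1.22 with ERCC scaling), on 38 expected counts in all after rounding. Of these 76.3% fell in replicate 2 (exact 95% interval 59.8 to 88.6), the library with more gene counts. The interval covers counting error only and treats expected counts as observed reads. The authors' own posterior SD was 4.39 counts in replicate 1 and 3.77 in replicate 2. The Eif4a2 transcript that holds it had 330.09 and 185.31 counts, fewer in replicate 2, and the sum of both had a log2 ratio of -0.83. That transcript gave most of the sum, which includes its reads from outside the snoRNA, so the sum does not test how shared reads were divided. Eif4a2 as a whole had -0.04. Snora26 also changed sign, from 0.39 alone to -0.39 with the Dancr transcripts that hold it. For Snord15b the sum with its Rps3 transcript kept the direction at 0.26, and for Snora74a it stayed at -0.06.

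**Figure D5:**
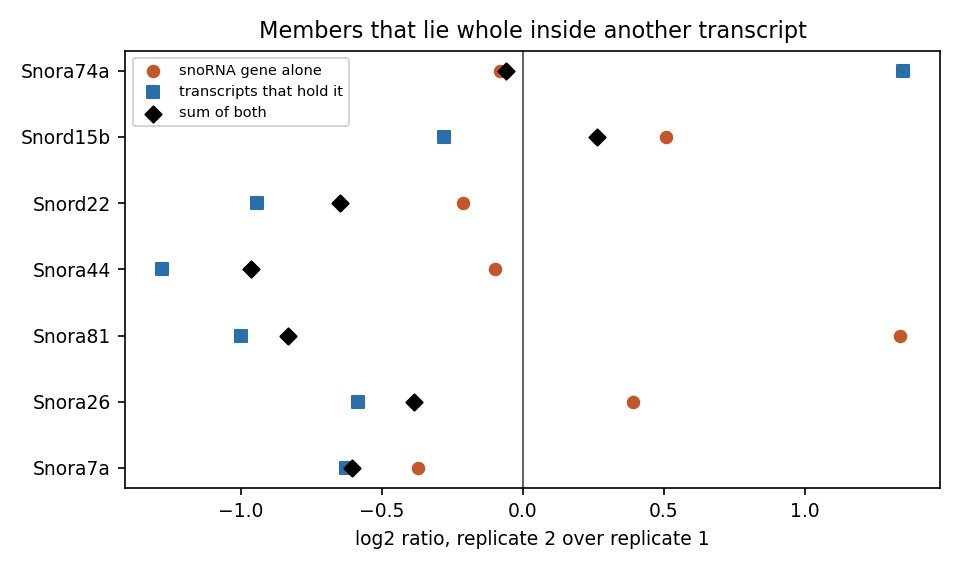
Log2 ratio of replicate 2 over replicate 1 for 7 of the 8 members that lie whole inside another transcript, for the snoRNA gene alone, for the transcripts that hold it and for the sum of both. Snora81 lies at 1.34 alone and at -0.83 in the sum, and Snora74a is nearly the same in both.

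Genes for the core proteins of the snoRNA particles were all detected as RNA, and protein was not measured. The 4 box C/D core genes stood at 31.3 ± 1.82 TPM for Nop58, 26.9 for Nop56, 24.4 for Fbl and 22.1 for Snu13. The 4 box H/ACA core genes were at 19.4 for Nop10, 15.8 for Gar1, 15.6 for Nhp2 and 13.4 for Dkc1. Every box C/D core gene was thus above every box H/ACA core gene in mean TPM, with medians of 25.6 and 15.6. Of 17 measured genes for assembly and processing of the particles all 17 were detected (1 TPM or more in both libraries), with a median of 6.94 TPM and Pih1d1, Ruvbl2 and Ruvbl1 highest. All 16 genes of ribosomal RNA synthesis were detected, led by Npm1 at 133 TPM, Ncl at 75.8 and Polr1d at 38.9. No gene of these 4 lists differed over 2-fold between the libraries. Over all genes 3.75% did so at 10 counts or more and 0.71% at 100 or more, so this is no result about the lists.

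Of 24 genes listed as noncoding snoRNA hosts, 21 were matched by symbol and 18 detected, with a median of 9.11 TPM. The list also held Taf1d, a gene of the ribosomal RNA synthesis list. Meg3 (2294 ± 472 TPM), Rian and Mirg (183) from 1 imprinted cluster were highest, and Snhg11 was lowest at 0.055. Rian spanned 13 annotated genes of the snoRNA biotype, while Meg3 and Mirg each spanned 0. Of the 19 with at least 10 counts 4 were higher in replicate 2, with a median log2 ratio of -0.23, beside -0.00 for all genes. None differed over 2-fold, beside 3.75% of all genes with at least 10 counts.

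Other small RNAs of the nucleus give the scale. The snoRNA biotype held 1507 genes, 60 of which reached 10 counts, and the members took 20.9% and 22.2% of its counts. The U3 genes (Rnu3a and Rnu3b, 10 entries), box C/D RNAs for precursor cleavage whose symbols are outside the Snord series, held 9477 and 9710 counts, more than all members together. Scarna10, a guide RNA of the Cajal body, had 5112 and 4990.65. Among the U3 genes, 2 entries at 1 locus moved in opposite directions between the libraries. How reads were divided between them was not tested. The 2 overlapping Rnu3a entries had 96.39 and 700.29 counts, and 958.61 and 428.71 counts, in replicates 1 and 2, but their sums were 1055 and 1129.

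The libraries held 30745756 and 35977559 gene counts. All 6 skeletal muscle check genes were abundant, with Acta1, skeletal actin, at 12814 TPM. Markers of other tissues moved between the animals. All 8 liver genes were over 2-fold higher in replicate 2 (median log2 ratio 3.35) and all 8 red cell genes over 2-fold lower (-2.46). Of 9 cartilage and bone genes 7 differed over 2-fold (median -3.01, 1 of the 9 higher). Over all 17581 genes 180 (1.02%) were over 2-fold higher and 479 over 2-fold lower, or 3.75% either way. These lists were chosen with earlier results of these data known, so their counts are descriptions. The part of these tissues in the snoRNA values was not tested. In bulk tissue, fewer cells of a type and less RNA per cell cannot be told apart. A separate transcript quantification that the authors also deposited gave 0 estimated counts to all 18 members in both libraries and to all 141 annotated entries, so no member level could be set beside it.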

How the data were processed

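Total RNA-seq of 2 biological replicates was used. Per the file headers, the gene and transcript tables hold expected counts (estimated by the authors, not always whole) and TPM, which the authors computed per effective length, with build mm10 and GENCODE M21 genes. A posterior standard deviation of each count was also deposited by the authors. A further deposited transcript quantification holds estimated counts and TPM. The sources used here give no aligner, quantification program or treatment of strand in counting. Antisense and overlapping genes are therefore uncertain. The reference represents C57BL/6J, and CAST/EiJ alleles were not separated.

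Symbols, coordinates (1-based) and sequences came from GENCODE M21, joined by gene ID. All 55536 Ensembl IDs matched. Total counts were taken over Ensembl genes only, leaving out 96 ERCC and 26249 other rows. After rounding of counts, edgeR 4.0.16 in R 4.3.3 gave TMM log2 ratios with a prior count of 2, tested on simulated data. DESeq2 1.42.0 size factors, library size, ERCC totals and a prior count of 0.5 were alternatives. Intervals are exact Clopper-Pearson (95%) and cover counting error only, since reads are not independent molecules. Named members were the 12 highest by count in each class, the extremes by ratio, the genes next to the count minimum and the U3, U8, U13, U14, U17 and imprinted families. Named hosts were those of named members, and named list genes were the 3 highest and those under 1 TPM. A few other genes were chosen after their values were seen: the Snora16a entries, the genes with 0 counts and abundant hosts, Scarna10 and the core proteins. The members and gene lists were chosen with earlier results of these data known. In the lists Papd5, Snhg4, Snhg7 and Snhg16 matched no symbol. The host of 1 member is not reported here. No p-value was computed, since each animal gave 1 library.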

Additional observations from a re-analysis of the deposited data

How the results depend on the processing

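The number of expressed genes, 18, became 11 with a minimum of 20 counts and 0 in the other quantification, and was 21 with a minimum of 5, 14 with at least 10 counts in each library, and 16 to 18 when 1 replicate was left out. The box H/ACA share of member counts, 81.0%, was 72.5% in TPM and 84.0% without the highest member of each class. The median TPM was 113 for box C/D members, and 103 without the highest, 121 at 100 counts or more, 0 in the other quantification and 106.43 to 113.48 with 1 replicate left out. For box H/ACA members it was 18.5, and 17.9, 348, 0 and 18.95 to 19.4 in the same order, so at 100 counts or more box H/ACA stood above box C/D. The single member over 2-fold became 0 with at least 100 counts and 0 among members with whole counts. The 9 members above their host became 4 by CPM and 5 with coding hosts only. The log2 ratio of Snora81 turned to -0.83 when the transcript that holds it was added, an alternative chosen after seeing the data, in which 5 other members moved by over 0.2 and 2 by less.

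The log2 ratios of all 18 members kept their side of 2-fold under the other 3 scalings and the other prior count, with 2 changes of sign under ERCC scaling, 1 under library size and none under the other alternatives. Ranks by TPM and by CPM differed for 12 members. No paired analysis was possible because there is 1 group. Depth limits the 10 members under 50 counts, whose order is not resolved, and genes under 100 nt have no measured level.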
